A study of Mus musculus with 5 samples.

Results

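Imprinted genes outside the Dlk1-Meg3 cluster were followed across 5 arrays of mouse embryonic stem cells with and without depletion of Tet1. The set was a list of 36 named genes, 20 expressed from the paternal and 16 from the maternal copy. Each gene was represented by its brightest probe set among those with exactly 1 gene symbol. Such a probe set was found for 33 genes, among 18193 genes in all, with Nespas listed under its current symbol Gnasas1. H19 was listed only together with Mir675 and is not given here, and Slc22a3 and Zrsr1 were not analysed. Of the 33, 28 exceeded the filter level on at least 1 array (16 paternal, 12 maternal), as did 13619 genes in all. The filter level is the 40th percentile of an array's probe sets and lay between 3.03 and 3.12 on the log2 scale. Slc22a18, Usp29, Zim1, Peg12 and Nespas stayed under it on every array, where signal is hard to tell from background. Plagl1 passed the filter through the J1 arrays alone, and Asb4 through the E14 scramble array alone.

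J1 cells, an established mouse embryonic stem cell line, had been kept on feeder layers of mouse embryonic fibroblasts. They were transfected with control or Tet1 siRNA and harvested 4 days later. E14 cells, another such line, had been kept free of feeders and infected with lentivirus for a scramble shRNA, Tet1 shRNA3387 or Tet1 shRNA2863. They were taken after 4 days in puromycin, so the scramble culture carries the virus and the selection too. Each of the 5 groups holds 1 array, and line, feeders and means of depletion differ together between J1 and E14 and cannot be told apart. The question behind the series is which genes respond when Tet1, an enzyme that oxidizes methylated cytosine, is depleted. Tet1 itself read 10.85 and 8.31 on the J1 control and Tet1 siRNA arrays. On the E14 arrays it read 10.95 with scramble, 9.24 with shRNA3387 and 10.06 with shRNA2863. Pluripotency markers were well above the filter level on all 5 arrays (12 of 12), with the core factor Pou5f1 between 11.24 and 11.73.

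An imprinted gene is expressed mainly from the copy inherited from the mother or from that inherited from the father. The choice is set by DNA methylation laid down in the germ cells at control regions, and it is carried through later divisions by Dnmt1 with its partner Uhrf1 and by the zinc finger protein Zfp57 with Trim28. Many imprinted genes act in growth and in the placenta, and cultured stem cells are known to vary in their imprints. The arrays measure the sum of both parental copies, so a level says nothing about which copy gave the RNA. Differences below are on the log2 scale unless called folds.

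The sequence before the start of some genes is shown first, because DNA methylation and Tet1 act mainly at CpG dinucleotides. The genes were picked by hand from those with wide differences, and Igf2 is not among them. Printed here are 6 sequences. Each is the 250 bases before a RefSeq start (GRCm38.p6, gene strand, 5′ to 3′), with every CpG in capitals. Where RefSeq lists several starts, the start richest in CpG was taken. Nnat (chr2:157559828-157560077, plus strand), Plagl1 (chr10:13090582-13090831, plus), Mest (chr6:30737800-30738049, plus) and Ascl2 (chr7:142969265-142969514, minus) were lower in E14 than in J1. Calcr (chr6:3763624-3763873, minus) was higher in E14. Kcnq1ot1 (chr7:143296548-143296797, minus) moved most under the hairpins.
Nnat: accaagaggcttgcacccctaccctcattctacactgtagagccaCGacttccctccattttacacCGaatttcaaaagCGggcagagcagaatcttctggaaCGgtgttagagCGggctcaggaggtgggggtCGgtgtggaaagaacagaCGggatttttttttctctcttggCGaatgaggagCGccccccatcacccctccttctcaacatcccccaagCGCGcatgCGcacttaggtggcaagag
Plagl1: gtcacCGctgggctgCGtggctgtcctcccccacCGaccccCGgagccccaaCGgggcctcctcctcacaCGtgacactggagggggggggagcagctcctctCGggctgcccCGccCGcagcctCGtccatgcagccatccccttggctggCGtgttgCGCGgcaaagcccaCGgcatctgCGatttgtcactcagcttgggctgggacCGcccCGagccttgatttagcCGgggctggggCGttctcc
Mest: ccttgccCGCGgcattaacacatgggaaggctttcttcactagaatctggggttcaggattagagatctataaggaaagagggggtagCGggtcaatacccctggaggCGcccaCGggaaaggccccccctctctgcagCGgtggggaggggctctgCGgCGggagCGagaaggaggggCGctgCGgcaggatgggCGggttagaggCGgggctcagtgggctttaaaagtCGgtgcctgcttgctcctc
Ascl2: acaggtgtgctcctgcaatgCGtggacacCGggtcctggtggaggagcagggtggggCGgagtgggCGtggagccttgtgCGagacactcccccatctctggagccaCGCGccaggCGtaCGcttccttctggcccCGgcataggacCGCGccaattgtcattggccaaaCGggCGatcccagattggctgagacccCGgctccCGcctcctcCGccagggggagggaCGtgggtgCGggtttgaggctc
Calcr: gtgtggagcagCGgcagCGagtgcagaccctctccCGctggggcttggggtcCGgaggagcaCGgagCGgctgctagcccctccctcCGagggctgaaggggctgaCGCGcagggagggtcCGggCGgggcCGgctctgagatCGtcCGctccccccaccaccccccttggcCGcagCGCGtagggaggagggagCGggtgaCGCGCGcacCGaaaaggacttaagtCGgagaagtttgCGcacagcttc
Kcnq1ot1: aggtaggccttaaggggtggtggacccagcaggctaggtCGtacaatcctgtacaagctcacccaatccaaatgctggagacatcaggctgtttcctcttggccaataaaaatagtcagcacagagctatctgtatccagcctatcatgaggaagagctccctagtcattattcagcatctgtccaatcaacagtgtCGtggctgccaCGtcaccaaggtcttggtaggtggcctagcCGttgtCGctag
These windows held 12 CpGs for Nnat, 19 for Plagl1, 14 for Mest, 19 for Ascl2, 24 for Calcr and 5 for Kcnq1ot1. Windows were found for 30 of the 36 genes, with a median of 14 CpGs against 6 over 27025 genes. The range among the 30 ran from 0 for Slc22a18 to 40 for Grb10, and the median was 8 for paternal and 20 for maternal genes. The letters TGCCGC, which Zfp57 binds when methylated, were searched on both strands. They occurred in 5 of the 30 windows (Mest with 2 matches, and Plagl1, Calcr, Mcts2 and Zim1 with 1 each), or 16.7%, against 9.15% of all genes. A match is a description of the letters only. The windows end at the start of the gene and were not chosen as imprint control regions. The CpG counts therefore need not describe the sites of an imprint.

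The widest differences among the imprinted genes lay between the lines. Nnat, Plagl1, Igf2, Peg10, Ascl2, Mest and Ube3a were lower on the E14 arrays, and Calcr and Grb10 were higher. These 9 of 28 genes (32.1%) passed limma's test of the line with depletion in the fit (Benjamini-Hochberg adjusted p under 0.05 over all genes, 2 residual degrees of freedom), where 14.2% of all genes did. Plagl1 passed the filter through the J1 arrays, where it is high, so the sign of its difference was largely set by the filter. A further count, chosen after seeing the data, took the genes above the filter level in both lines, on at least 1 array of each. There 8 of 26 passed (2 higher and 6 lower) against 14.4% of all such genes, with 4 of 15 paternal genes lower. Nnat stayed in through the E14 scramble array alone (3.35) and Calcr through the J1 control array alone (3.14). That count therefore does not lift the limit of low signal for these genes. Over all 28, 7 were lower in E14 against 7.8% of all genes, and 2 were higher against 6.37%. Median centring gave 1 higher and 9 lower, and quantile normalization 3 higher and 7 lower. By parental copy, 5 of 16 paternal genes were lower and 0 higher, and of 12 maternal genes 2 were lower and 2 higher. At an unadjusted p under 0.05 there were 14 of 28 genes against 32.2% of all genes (3 higher against 15.6% and 11 lower against 16.5%), with 0 of 16 paternal genes higher. The median difference of E14 minus J1 was -0.23 over the 28 genes, -0.33 over the paternal and -0.16 over the maternal ones, and 0.03 over all genes. In such bulk samples fewer cells of a type cannot be told apart from less RNA per cell. These tests rest on few arrays. With any 1 array left out, 1 residual degree of freedom remained and limma called 0 of 13619 genes, these 9 included, with a lowest adjusted p between 0.0876 and 0.1116 and 3357 to 4113 genes at an unadjusted p under 0.05. All 9 kept their direction, but without the J1 array with Tet1 siRNA the differences were -1.99 for Igf2, -1.40 for Peg10, -1.33 for Ascl2 and 1.99 for Calcr, and Peg10 reached -2.96 without the J1 control or the E14 scramble array.

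**Figure D1:**
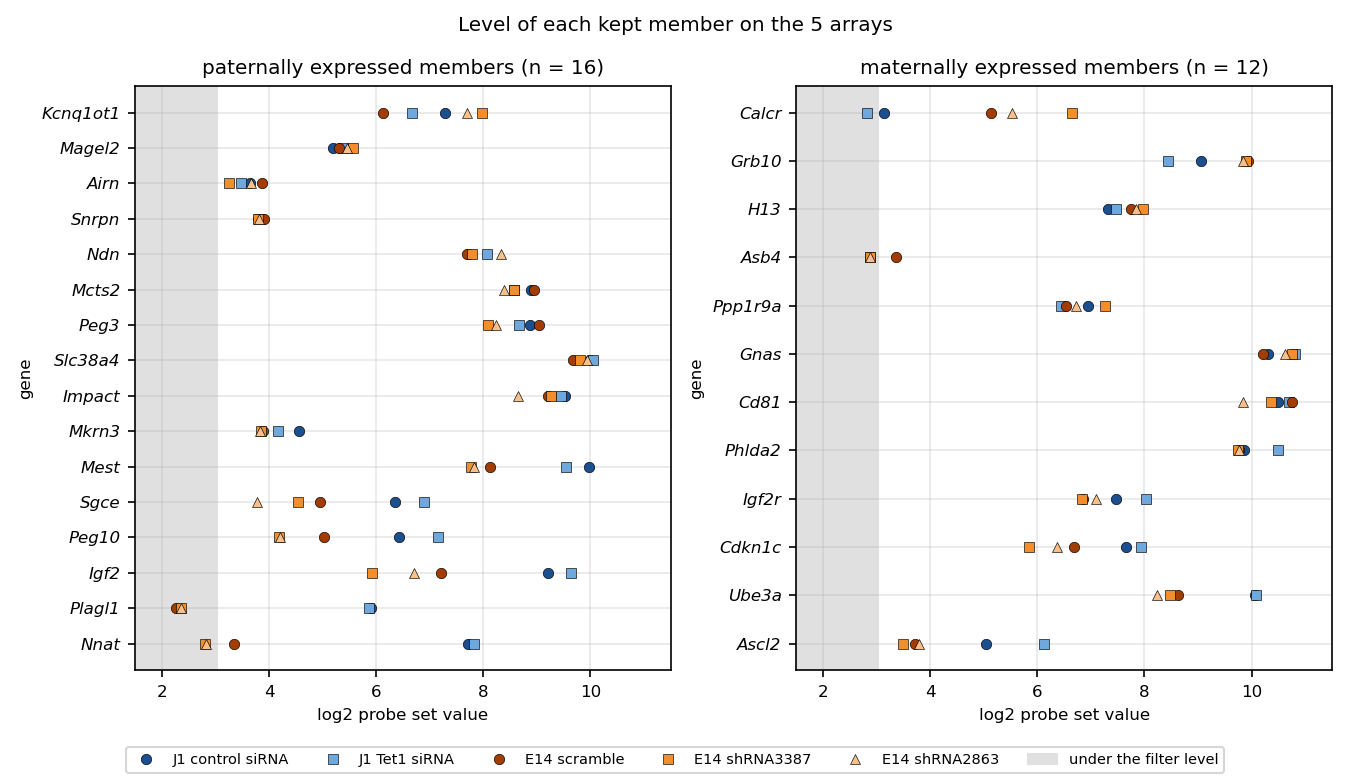
Log2 probe set value (x axis) of each of the 28 imprinted genes above the filter level on the 5 arrays, with 1 point per array, the grey band marking values under the filter level, paternally expressed genes at left and maternally expressed genes at right. Genes are ordered by the difference of E14 minus J1, and the E14 points of Nnat and Plagl1 lie between 2.27 and 3.35, under the J1 points between 5.86 and 7.82.

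Among the paternally expressed genes with no imprinted neighbour in the set, Nnat, which encodes the small membrane protein neuronatin, read 7.72 on the J1 control array and 7.82 on the J1 array with Tet1 siRNA. On the E14 arrays it read 3.35 with scramble, 2.81 with shRNA3387 and 2.82 with shRNA2863. The J1 arrays were high and the E14 arrays near or under the filter level, with a fitted difference of -4.73 ± 0.18 (SE; limma adjusted p = 0.0128). Plagl1, a zinc finger transcription factor that restrains growth, read 5.90 and 5.86 in J1. In E14 it read 2.27, 2.35 and 2.36 with scramble, shRNA3387 and shRNA2863. All 3 E14 values were under the filter level, so the fitted difference of -3.56 ± 0.06 (SE; limma adjusted p = 0.0076) has signal on the J1 side alone. Against the filter level in place of the E14 signal, the J1 mean of Plagl1 was 6.93-fold higher. The call rests on 1 of 3 probe sets: the others were under the filter level on all 5 arrays, each with an E14 minus J1 mean of 0.01.

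Mest, an enzyme of the hydrolase fold and a classical marker of the paternal copy, read 9.98 and 9.55 in J1 with control and Tet1 siRNA. With scramble, shRNA3387 and shRNA2863 it read 8.13, 7.77 and 7.82, so that it stayed well expressed in both lines. The fitted difference was -1.80 ± 0.09 (SE; limma adjusted p = 0.0153), or 3.47-fold lower in E14. Impact, a regulator of translation, and Slc38a4, an amino acid transporter, were high in both lines with no call, at -0.43 ± 0.23 and -0.23 ± 0.09 (SE, limma adjusted p = 0.296 and 0.167). The other probe set of Slc38a4 was nearly as bright and gave an E14 minus J1 mean of -1.30 against -0.21 for the brightest. Grb10, an adaptor protein that damps insulin and growth factor signalling and is mostly maternal outside the brain, was the opposite case. It read 9.05 and 8.43 in J1 against 9.94, 9.89 and 9.83 in E14, and the groups did not overlap. The fitted difference of Grb10 was 1.20 ± 0.16 (SE; limma adjusted p = 0.0284), but its 2 other probe sets gave E14 minus J1 means of 1.38 and -1.36.

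In the Igf2-H19 cluster, Igf2, the fetal growth factor, read 9.21 and 9.63 in J1 with control and Tet1 siRNA. In E14 it read 7.22 with scramble, 5.93 with shRNA3387 and 6.71 with shRNA2863. Both J1 arrays lay above all E14 arrays, and the fitted difference was -2.74 ± 0.44 (SE; limma adjusted p = 0.038). The other probe set of Igf2 was under the filter level on all arrays, and the median of both gave -1.41. The Peg10-Sgce cluster held differences in both directions. Peg10, a gene derived from a retrotransposon and needed for the placenta, read 6.43 and 7.16 in J1 against 5.03, 4.19 and 4.20 in E14, a fitted difference of -2.29 ± 0.41 (SE; limma adjusted p = 0.0455). Its paternal neighbour Sgce, a sarcoglycan, read 6.35 and 6.89 against 4.95, 4.55 and 3.78, with -2.16 ± 0.43 and an adjusted p of 0.0561 in limma. The maternal gene Calcr, the calcitonin receptor, read 3.14 and 2.82 in J1 against 5.13 with scramble, 6.65 with shRNA3387 and 5.52 with shRNA2863. Calcr thus was near the filter level in J1 and clearly above it in E14, with a fitted difference of 2.72 ± 0.51 (SE; limma adjusted p = 0.0492). That p crossed the threshold under median centring (0.0515), with no filter (0.0553) and without a mean-variance trend (0.0536), and that of Peg10 with no filter (0.0514). Ppp1r9a, an actin-binding regulator of phosphatase, differed by 0.14 ± 0.32 (SE).

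**Figure D2:**
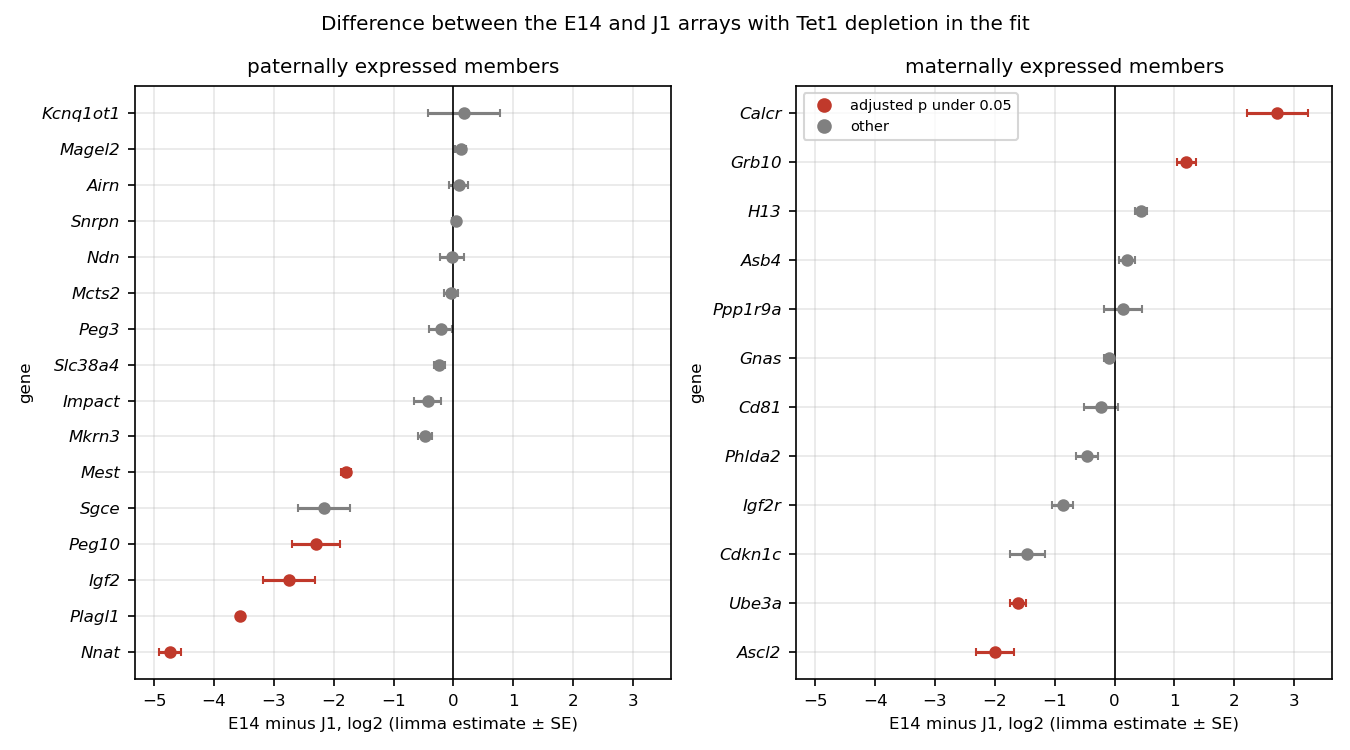
Difference of E14 minus J1 (x axis, log2, limma estimate with its SE as bar) for each of the 28 genes, paternal at left and maternal at right, from 2 J1 and 3 E14 arrays. Genes with an adjusted p under 0.05 are red, and they run from -4.73 for Nnat to 2.72 for Calcr.

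In the Kcnq1 cluster of maternally expressed genes, Ascl2, a transcription factor of trophoblast progenitors, read 5.04 and 6.13 in J1 with control and Tet1 siRNA. It read 3.71, 3.49 and 3.79 on the E14 arrays with scramble, shRNA3387 and shRNA2863, and the fitted difference was -1.99 ± 0.32 (SE; limma adjusted p = 0.0384). Both other probe sets of Ascl2 pointed the same way, with E14 minus J1 means of -2.66 and -3.03, though they were under the filter level in E14. Cdkn1c, the cyclin-dependent kinase inhibitor p57, read 7.65 and 7.93 in J1 against 6.68, 5.85 and 6.37 in E14. Its difference of -1.46 ± 0.29 (SE) had a limma adjusted p of 0.0563. Phlda2, a placental growth inhibitor, and Cd81, a tetraspanin, read between 9.74 and 10.75 on all arrays and differed by -0.46 ± 0.18 and -0.23 ± 0.29 (SE, limma adjusted p = 0.184 and 0.634).

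In the Snrpn-Ube3a cluster, Ube3a, a ubiquitin ligase whose imprint is known from neurons, was called lower in E14. Its brightest probe set read 10.07 and 10.09 in J1 against 8.63, 8.48 and 8.23, with -1.61 ± 0.14 (SE; limma adjusted p = 0.0185). Its 5 other probe sets gave E14 minus J1 means of 0.00, -0.34, 0.17, 0.57 and -0.47, and as the median over probe sets the fitted difference turned to 0.03. The call for Ube3a therefore belongs to 1 probe set. The paternal genes of that cluster differed little. Ndn, which encodes the growth suppressor necdin, differed by -0.02 ± 0.20 (SE), its neighbour Magel2 by 0.12 ± 0.09 and Mkrn3, a ubiquitin ligase, by -0.47 ± 0.11 (limma adjusted p = 0.0716). Snrpn, which encodes a splicing protein, read 3.80 to 3.91 in the only probe set with its symbol alone, while 6 more were listed jointly with another symbol and were not used.

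At Peg3, a paternal zinc finger gene of growth and maternal behaviour, the probe sets disagreed in size. The brightest read 8.87 and 8.66 in J1 and 9.04, 8.09 and 8.24 in E14, with no call (-0.21 ± 0.19 SE; limma adjusted p = 0.516). The 2 others above the filter level had E14 minus J1 means of -2.00 and -1.70. Igf2r, the maternal receptor that clears Igf2, read 7.46 and 8.03 in J1 against 6.85, 6.83 and 7.10, with -0.87 ± 0.17 (SE; limma adjusted p = 0.0554), whereas its other probe set gave 1.21. Its antisense RNA Airn was low throughout, between 3.25 and 3.87. Gnas, the stimulatory G protein subunit, differed by -0.10 ± 0.07 (SE), the translation factor gene Mcts2 by -0.04 ± 0.11 and its host H13, a signal peptide peptidase, by 0.44 ± 0.10 (limma adjusted p = 0.0694).

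**Figure D3:**
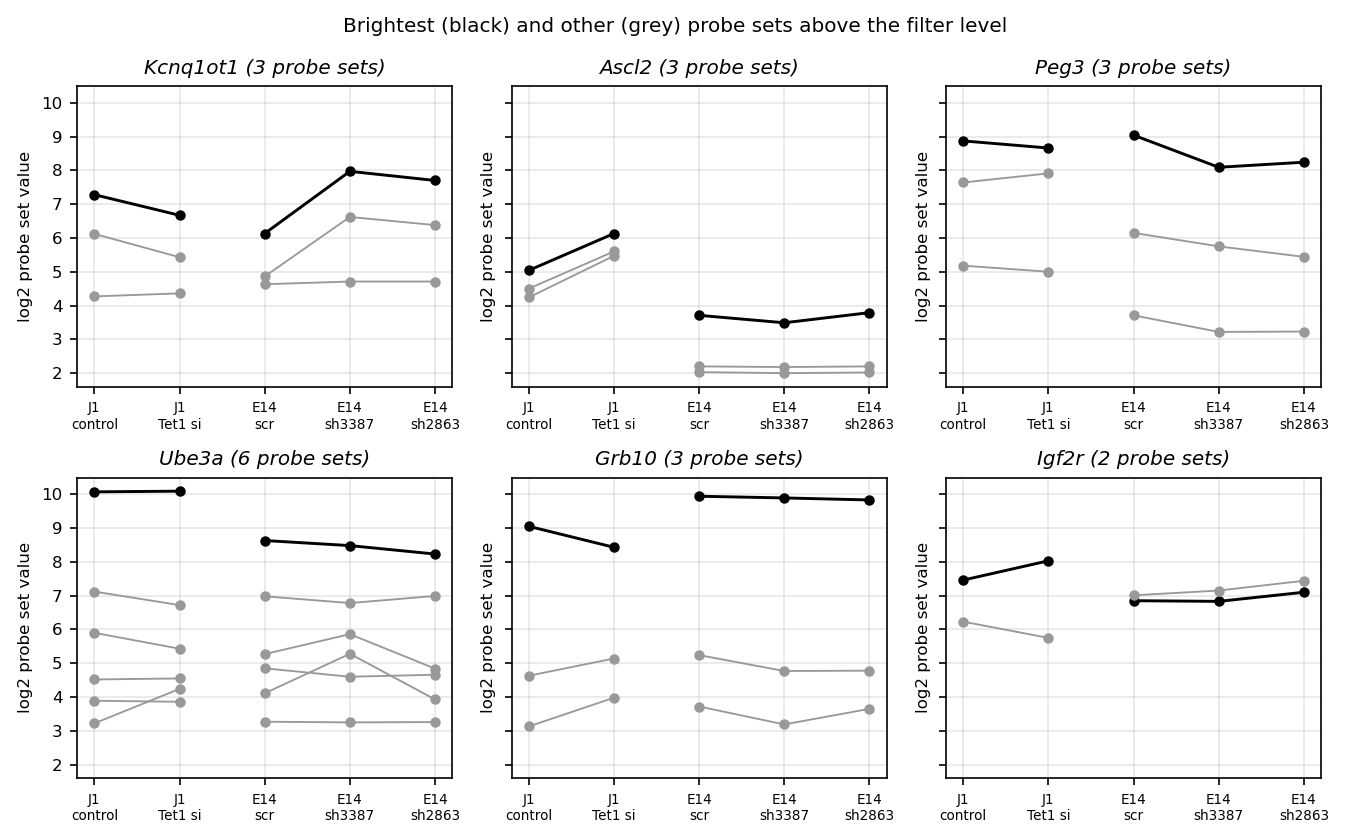
Log2 values (y axis) of every probe set above the filter level on at least 1 array for 6 genes, by array (x axis), with the brightest in black and others in grey and lines joining arrays of the same line of cells. The 3 probe sets of Ascl2 run in parallel in J1, while those of Ube3a, Grb10 and Igf2r differ in their direction between J1 and E14.

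The 2 control arrays were also set against each other, as a comparison of sizes with no test. A 2-fold difference was found for 10 of 28 genes, against 8.36% of all genes. At least 2-fold lower on the E14 scramble than on the J1 control array were 9 of the 28 genes, against 4.84% of all genes, and 1 was higher, Calcr, against 3.52%. The 9 were Nnat, Plagl1, Igf2, Mest, Ube3a, Peg10, Sgce, Ascl2 and Kcnq1ot1, the last at 7.28 and 6.13. With the median over probe sets the count was 5 lower and 1 higher. Over genes above the filter level in both lines it was 8 lower and 1 higher of 26, against 8.4% either way. Over all 5 arrays the E14 values lay wholly under the J1 values for 14 of 28 genes, against 21.8% of all genes, and wholly above them for 3 (Calcr, Grb10 and H13), against 27.1%. Without the genes above the filter level in 1 line alone, 16 of 26 did not overlap, against 49.2%. Markers of other cell types moved between the lines as well. The summed level of 15 trophoblast markers was 12.99 to 13.55 in J1 and 10.97 to 11.94 in E14. Cdx2, Elf5 and Gata3 were under the filter level on all arrays. The keratins Krt8 and Krt18 were the largest members of that sum. They read 11.84 and 11.75 on the J1 control array and 9.92 and 9.83 on the E14 scramble array. Of the 12 kept markers, 10 were below 0 for E14 minus J1 and 2 above, among them Eomes at 1.04. Krt7 was the furthest below 0, reading 7.29 and 7.75 in J1 and 3.81, 3.69 and 4.80 in E14. The sum of 16 primitive endoderm markers was 11.66 to 12.05 in J1 and 10.61 to 10.72 in E14, with Pdgfra, Cubn, Foxa2, Afp and Ttr under the filter level on all arrays. That difference lay in Col4a1, Col4a2 and Sparc, which limma called lower, while the median over the 11 kept markers was -0.01 with 4 above 0, and Lama1 differed by 0.90. The sum of 22 fibroblast markers, for the feeders, overlapped at 11.89 to 11.92 and 11.65 to 12.08. Its largest members on the J1 control array were Fn1, Vim and Tagln, at 10.00, 9.94 and 9.84. On the feeder-free E14 scramble array they read 10.27, 10.19 and 10.12, so the sum says little about feeder cells. Limma called 2 of the 19 kept markers lower in E14 and 0 higher. These were Col1a2 (6.24 and 5.95 in J1 against 3.59 to 3.62) and Thbs1 (7.77 and 8.10 against 6.19 to 6.83). Of those 22, Postn, Cdh11 and Fap were under the filter level on all arrays. The part of these cells in the differences was not tested.

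In J1 cells Tet1 siRNA went with small differences at most imprinted genes. Ascl2 alone was at least 2-fold different, 1 of 28 against 1.57% of all genes (0.47% higher, 1.1% lower), at 2.13-fold higher (5.04 to 6.13). Its other probe sets differed by 1.23 and 1.10. At 1.5-fold there were 3 higher and 2 lower, against 2.91% and 6.09% of all genes. Those higher were Ascl2, Peg10 (6.43 to 7.16) and Phlda2 (9.85 to 10.50). Those lower were Grb10 (9.05 to 8.43) and Kcnq1ot1 (7.28 to 6.67). The other probe sets of Grb10 differed by 0.85 and 0.51, the opposite way. Each is a difference between 2 single arrays, with no replicate check and no test.

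By parental copy, 9 of 12 maternal and 8 of 16 paternal genes were above 0 in J1, against 6198 of 13619 genes in all. The medians were 0.18 and -0.02, against -0.01 over all genes. All 4 kept maternal genes of the Kcnq1 cluster were above 0 (Ascl2 1.09, Phlda2 0.65, Cdkn1c 0.28 and Cd81 0.21). Kcnq1ot1, the paternal noncoding RNA of that cluster, differed by -0.61. Its other probe sets above the filter level differed by -0.69 and 0.09. A link between Kcnq1ot1 and the maternal genes was not tested. Igf2r, Sgce, Gnas and Igf2 differed by 0.57, 0.54, 0.51 and 0.42, and Ppp1r9a, Mest, Mkrn3 and Mcts2 by -0.50, -0.43, -0.39 and -0.32. Nnat, Plagl1, Slc38a4, Ube3a, Snrpn, Asb4 and Impact lay within 0.10 of 0. The other probe set of Igf2r differed by -0.48, that of Slc38a4 by 0.71 and the 5 of Ube3a by -0.47 to 1.02. All other probe sets above the filter level kept the sign for Ascl2, Gnas, Ndn, Ppp1r9a and Slc38a4. The summed trophoblast markers went from 12.99 to 13.55 on the same arrays, with 11 of 12 kept markers above 0, among them Plac1 (2.70), Hand1 (1.08), Gata2 (0.81) and Krt18 (0.71). Cdx2, Elf5 and Gata3 stayed under the filter level. Whether trophoblast-like cells bear on the values of Ascl2, Phlda2 and Peg10 was not tested. The fibroblast sum differed by less, at 11.89 and 11.92, while primitive endoderm markers went from 11.66 to 12.05. All 12 pluripotency markers were below 0 with Tet1 siRNA (median -0.44), among them Esrrb at -1.21 and Nanog at -0.88, and their sum went from 14.98 to 14.64. The part of these cell states was not tested.

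**Figure D4:**
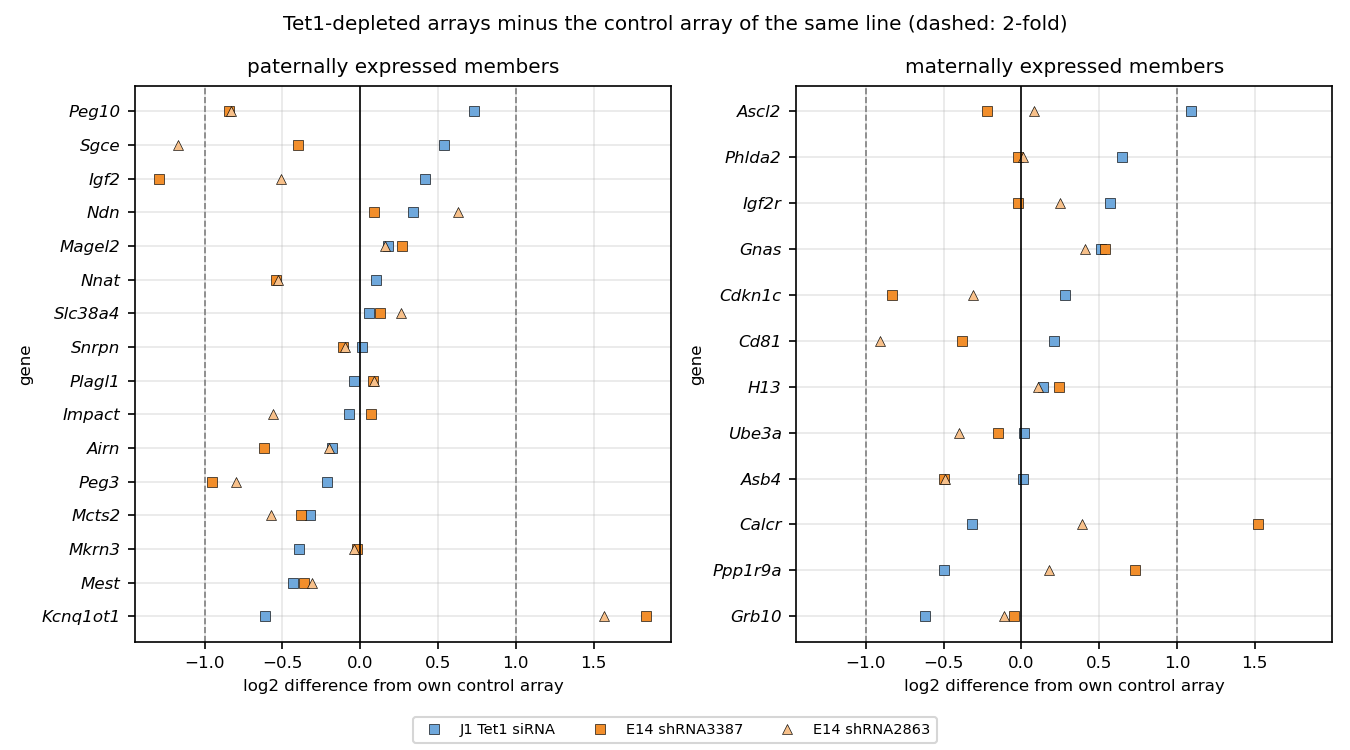
Difference of each Tet1-depleted array from the control array of its own line (x axis, log2, dashed lines at 2-fold) for the 28 genes, paternal at left and maternal at right, with 1 point per depletion. Kcnq1ot1 lies at -0.61 for J1 and at 1.84 and 1.57 for the hairpins, and Peg10 at 0.73 against -0.84 and -0.83.

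In E14 cells both hairpins went with higher Kcnq1ot1 and with lower Peg10 and Peg3 than the scramble array, which they share. Kcnq1ot1 read 6.13 with scramble, 7.97 with shRNA3387 and 7.70 with shRNA2863, 3.58-fold and 2.97-fold higher. It alone was 2-fold different with both, 1 of 28 against 0.536% of all genes and 0.235% in that direction. At 1.5-fold with both there were 3 of 28 (Kcnq1ot1 higher, 1.87% of all genes, and Peg10 and Peg3 lower), against 3.55%. Its second probe set differed by 1.76 and 1.52, and the third above the filter level by 0.08 and 0.08, so that the median over all 6 probe sets was 0.02 and 0.04. The limma estimate over both hairpins was 1.70 ± 0.18 (SE), with an unadjusted p of 0.0082 and an adjusted p of 0.352. Peg10 read 5.03, 4.19 and 4.20 with scramble, shRNA3387 and shRNA2863, for -0.83 ± 0.07 (SE; limma adjusted p = 0.342). Peg3 read 9.04, 8.09 and 8.24, for -0.88 ± 0.12 (SE; limma adjusted p = 0.368), with both other probe sets below 0 under each hairpin.

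No imprinted gene passed the test over both hairpins. Limma called 0 of 13619 genes at an adjusted p under 0.05, on 1 residual degree of freedom from the hairpin pair. At an unadjusted p under 0.05 there were 7 of 28 genes, against 11% of all genes, 2 above 0 (Kcnq1ot1 and Gnas), against 4.43%, and 5 below 0 (Peg10, Peg3, Nnat, Mest and Asb4), against 6.58%. Asb4 passed the filter through the scramble array alone, so its sign was set by the filter. Over genes above the filter level with scramble and with a hairpin, again a count chosen after seeing the data, there were 5 of 25, against 10.4% of such genes. Nnat and Asb4 read 3.35 and 3.37 with scramble and 2.81 to 2.88 with the hairpins, at or under the filter level.

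With shRNA3387, the hairpin with the lower Tet1 signal, 3 of 28 genes were 2-fold different, against 1.81% of all genes (1.15% higher, 0.653% lower). Kcnq1ot1 and Calcr (5.13 to 6.65, 2.87-fold) were higher and Igf2 (7.22 to 5.93, 2.45-fold) was lower. As the median over its 2 probe sets Igf2 differed by -0.70, under 2-fold. Ppp1r9a differed by 0.73 with shRNA3387 on its brightest probe set. Its 3 others above the filter level differed by 1.07, 1.02 and -0.29. With shRNA2863 there were 2 of 28, against 1.2% (0.587% higher, 0.609% lower), Kcnq1ot1 higher and Sgce (4.95 to 3.78, 2.25-fold) lower. At 1.5-fold, shRNA3387 gave 3 higher and 5 lower of 28, against 5.39% and 3.36% of all genes (8.75% either way). With shRNA2863 there were 2 higher and 4 lower, against 3.63% and 3.26% (6.89% either way). Calcr, Igf2 and Sgce were thus 2-fold different with 1 hairpin each, and their values with the other were 0.39, -0.51 and -0.40. Between the hairpins only Calcr differed 2-fold among the 28, 2.19-fold higher with shRNA3387 (background 1.01% of all genes), and Sgce, Impact and Igf2 differed by 0.77, 0.63 and -0.78. Among the maternal neighbours of Kcnq1ot1, Cdkn1c differed from scramble by -0.83 and -0.31 with shRNA3387 and shRNA2863. Cd81 differed by -0.38 and -0.91, Ascl2 by -0.22 and 0.08 and Phlda2 by -0.02 and 0.01. The summed trophoblast markers were 11.32 with scramble, 10.97 with shRNA3387 and 11.94 with shRNA2863. Krt8 and Krt18, the largest of them, differed by -0.71 and -0.59 with shRNA3387 and by 0.67 and 0.73 with shRNA2863. Of the 12 kept markers, 6 were above 0 and 6 below with shRNA3387, and 9 above and 3 below with shRNA2863. Esx1 was higher with both, at 1.64 and 1.15. The part of the trophoblast markers was not tested.

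Over all 3 depletions, Gnas, Ndn, Magel2, H13 and Slc38a4 were above 0 on each depleted array, and Peg3, Mkrn3, Airn, Mcts2, Mest and Grb10 below 0. These 11 of 28 genes compare with 33.5% of all genes with a common sign, 5 higher against 13% and 6 lower against 20.5%. None of the 28 (0) was 2-fold different in all 3, as 0.0441% of all genes were. The other probe set of Slc38a4 differed by 0.71 in J1 and by -0.39 and -0.41 with shRNA3387 and shRNA2863. Of the 4 other probe sets of Ndn above the filter level, those that differed by -0.13 and -0.23 with shRNA3387 also lacked the common sign. In J1, other probe sets above the filter level were above 0 for Grb10 (0.85 and 0.51) and Airn (0.01 and 0.19). For Peg3, 1 such probe set was at 0.27 in J1, and the other stayed below 0 in each depletion. None of the 3 others of H13 above the filter level was above 0 in every depletion. Gnas read 10.30 and 10.81 in J1 and 10.22, 10.76 and 10.63 in E14. Its limma estimate over both lines was 0.49 ± 0.07 (SE; unadjusted p = 0.003, adjusted p = 0.7), and its 2 other probe sets above the filter level were close to 0 under the hairpins. Mcts2 read 8.90 and 8.58 in J1 and 8.95, 8.57 and 8.38 in E14, for -0.41 ± 0.11 (SE). Mest differed by -0.38 ± 0.09 and Peg3 by -0.59 ± 0.19 (SE). For Mcts2, Mest and Peg3 the unadjusted p was 0.023, 0.0136 and 0.0421 and the limma adjusted p 0.7, 0.7 and 0.718. These 4 genes were all that reached an unadjusted p under 0.05, 4 of 28 against 6.87% of all genes (1 above 0 against 2.86% and 3 below 0 against 4.01%), and limma called 0 of 13619 at an adjusted p under 0.05.

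The differences had opposite signs in J1 and with both hairpins at 13 of the 28 genes (9 above 0 in J1 and 4 below), against 34.7% of all genes. They include Snrpn, Asb4, Ube3a and Plagl1, whose J1 differences were 0.01, 0.01, 0.02 and -0.04. Kcnq1ot1 and Peg10 were at least 1.5-fold different in opposite directions in J1 and with both hairpins, as 0.0881% of all genes were. The difference of the effects, E14 minus J1, was tested in the fit of 4 means. It was 2.31 ± 0.28 (SE) for Kcnq1ot1 and -1.57 ± 0.11 for Peg10, both with a limma adjusted p of 0.332. For Phlda2 it was -0.66 ± 0.09 and for Ascl2 -1.16 ± 0.28 (SE, limma adjusted p = 0.337 and 0.353). At an unadjusted p under 0.05 there were 8 of 28 genes, against 13.9% of all genes, and limma called 0 of 13619 after adjustment. For Kcnq1ot1 the difference turned to -0.01 as the median over its probe sets, of which 3 were under the filter level on all arrays.

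The RNA of factors that set or keep imprints was read beside the imprinted genes. Of 26 named, 23 were above the filter level. In J1, 21 of the 23 were below 0 with Tet1 siRNA and 2 above 0, with a median of -0.30, while 6865 of all 13619 genes were below 0. At least 2-fold lower were 3, against 1.1% of all genes (Tet1, the target of the siRNA itself, Tet2 and Arid4a, a chromatin protein that acts at the Snrpn imprint, from 5.94 to 4.94). The hairpins did not share the shift of J1. With shRNA3387, 15 of the 23 were above 0 and 8 below (median 0.11). With shRNA2863, 11 were above 0 and 12 below (median -0.02). Of all 13619 genes, 7756 and 7502 were below 0 with shRNA3387 and shRNA2863. Zfp57 read 5.66 and 5.65 in J1 and 5.82, 5.64 and 5.65 in E14. Its corepressor Trim28 differed by -0.46 in J1 and by -0.13 and -0.10 with shRNA3387 and shRNA2863. The maintenance pair Dnmt1 and Uhrf1 differed by -0.08 and -0.22 in J1, by 0.05 and 0.32 with shRNA3387 and by 0.10 and 0.40 with shRNA2863. The de novo enzymes Dnmt3a and Dnmt3b and their cofactor Dnmt3l had differences between -0.58 and 0.53 in the 3 depletions. Smchd1, a chromatin protein that silences some imprinted clusters, differed by 0.24, 0.76 and 0.59. Dppa3, which protects methylation in the zygote, differed by -0.63, 0.46 and 0.50. Between the lines, limma called 1 of 23 (Mbd3, a subunit of a chromatin remodeller, at 0.83 ± 0.10 SE, adjusted p = 0.0256), against 14.2% of all genes, and over both lines 0 of 23, with 2 (Tet1 and Smchd1) at an unadjusted p under 0.05.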

How the data were processed

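RNA of 5 cultures had been labelled with biotin and measured on Affymetrix arrays, per the labels' protocols. The deposited values are log2 probe set summaries; the log2 scale was inferred from their range (1.38 to 14.12), while their normalization was not given in the sources used here. Values were used as deposited. Of 45101 probe sets, 64 array controls were left out and 34945 had 1 symbol, named through platform annotation and, by Entrez identifier, RefSeq (GRCm38.p6). The brightest probe set stood for its gene, and genes over the 40th percentile on at least 1 array were kept. Called meant 2-fold for single arrays, or a two-sided adjusted p under 0.05 in limma 3.58.1 (R 4.3.3, lmFit and eBayes with a trend, Benjamini-Hochberg over all kept genes). One fit had line and depletion as terms, the other 4 means. Each group held 1 array, so no spread within a group was measured. In the fit of line and depletion, the residual spread was the gap between the hairpins and the difference of the depletion effect between lines. In the fit of 4 means it was the hairpin gap alone. SEs and p-values thus rest on differences between reagents and lines, with any technical spread mixed in. The number of arrays limits precision.

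The members, lists and tests were chosen with earlier results of these data known. All members were eligible to be named, with full values for those 2-fold different or at an unadjusted p under 0.05. Of each other list, up to 4 genes by largest difference were eligible to be named, and not all of them were. Always named were Tet1 to Tet3, Dnmt1, Dnmt3a, Dnmt3b, Dnmt3l, Uhrf1, Zfp57 and Trim28. Smchd1, Dppa3, Hand1, Gata2, Eomes, Esx1, Copg2, Commd1, Pou5f1, Fn1, Vim, Tagln and the markers under the filter level were named after their values were seen. Tet3 was under the filter level on all arrays. Counts over genes above the filter level on both sides of a comparison, on at least 1 array of each side, were added after seeing the data. Alternatives were quantile normalization, median centring, the median over probe sets, other filters, a 1.5-fold threshold, no trend, no line term and leaving out each array.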

Additional observations from a re-analysis of the deposited data

Results flagged for a closer look

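Kcnq1ot1 and Peg10 stood out because J1 and both hairpins moved opposite ways, each by at least 1.5-fold, which 12 of 13619 genes did (0.0881%). Kcnq1ot1 was lower in J1 with Tet1 siRNA (-0.61) and higher with shRNA3387 and shRNA2863 (1.84 and 1.57), a difference of effects of 2.31 in E14 minus J1. Peg10 was higher in J1 (0.73) and lower with the hairpins (-0.84 and -0.83), a difference of effects of -1.57. Neither difference passed limma (adjusted p = 0.332 for both). No group held enough arrays to look for an array that stands apart.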

How the results depend on the processing

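Results kept their direction under both scalings, both filters, no trend and no line term; the exceptions came from the median over probe sets. Under that setting the count of genes 2-fold different with shRNA2863 went from 2 to 0 and that between the control arrays from 10 to 6. Also under it, Ube3a turned to 0.0329 for E14 minus J1, Gnas to -0.015 over both hairpins, and Grb10 and Kcnq1ot1 to -0.975 and -0.01 for the effect in E14 minus that in J1, while Grb10 for E14 minus J1 was 0.05 (limma adjusted p = 0.911). Plagl1 fell under the filter level there, as the median of its 3 probe sets. The count of genes called between the lines was 9 as before, but other genes took the place of Ube3a, Grb10 and Plagl1. The cause of these changes was not tested. At 1.5-fold in place of 2-fold, the counts rose to 5 in J1, 8 with shRNA3387 and 6 with shRNA2863. The count of genes called between the lines was 7 to 12 under the other settings, and 0 with each array left out in turn (lowest 0, highest 0), where 1 residual degree of freedom is left and no gene of the 13619 passes. All 9 kept their direction then, from -5.00 to -4.37 for Nnat and from 1.99 to 3.27 for Calcr. No paired analysis was possible because each group held 1 array. Low signal limits Nnat, Plagl1, Calcr and Asb4. Probe sets that disagree limit Ube3a, Grb10, Igf2r, Kcnq1ot1, Slc38a4, Peg3, Airn, H13 and Ndn. Plagl1 and Igf2 rest on 1 probe set each, their others being under the filter level. Of the 9 genes called between the lines, Nnat, Mest, Peg10 and Calcr had only 1 probe set. The median over probe sets could not change their differences and is no check on them.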

Other observations

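Other imprinted genes outside the Dlk1-Meg3 cluster, 29 of 41 named being above the filter level, were read in the same fits. Limma called 4 of 29 for E14 minus J1, near the 14.2% of all genes. Lower in E14 were Sfmbt2, a Polycomb-related gene of trophoblast (10.39 and 10.52 in J1 against 7.50, 7.75 and 8.42, -2.63 ± 0.27 SE, adjusted p = 0.0223), and Copg2, the neighbour of Mest (-0.70 ± 0.11 SE, adjusted p = 0.0389). Higher were Herc3, a ubiquitin ligase (1.06 ± 0.14 SE, adjusted p = 0.0299), and Commd1, the host gene of Zrsr1. Cobl, an actin nucleator next to Grb10, was below 0 in all 3 depletions, reading 7.71 and 6.28 in J1 and 7.94, 7.22 and 7.38 in E14. Its limma estimate over both lines was -0.98 (unadjusted p = 0.0145, adjusted p = 0.7). Of the Dlk1-Meg3 cluster, Rian differed by -0.60, -1.43 and -2.46 in J1, shRNA3387 and shRNA2863, and Meg3 by -0.61, 0.43 and -0.22.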
